A study of Homo sapiens with 48 samples.

Results

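Induced sites shared by RELA and RELB were described in L3.6pl cells, a human pancreatic ductal adenocarcinoma line. They are the regions on chromosomes 1 to 22 and X with a RELA peak after 30 min of TNFα that overlapped, by at least 1 bp, a RELB peak after 6 h of TWEAK, and overlapped no RELA or RELB peak in vehicle. Of 11249 RELA regions at 30 min of TNFα, 19.2% overlapped a RELA and 21.4% a RELB vehicle peak, 8504 had no vehicle peak of either factor, and 998 of these (11.7%) overlapped a RELB peak. These 998 shared induced regions were thus selected on 4 of the 16 peak lists, so their presence in those lists is a description and not a result. The 998 regions were 8.87% of the RELA list and, through 998 distinct RELB regions, 24.7% of the 4038 regions in the RELB list. The other 7506 RELA regions without a vehicle peak, which had no RELB peak at 6 h of TWEAK, served for comparison and are called induced RELA regions without RELB.

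The series holds 48 chromatin immunoprecipitation libraries in 16 conditions of 3 replicates, all from vehicle- or ligand-treated L3.6pl cells with no genetic change named in the labels. RELA, RELB and H3K27ac were each profiled in vehicle (PBS) and after 30 min or 6 h of TNFα or TWEAK, at 10 ng/ml each, and FOSL1 was profiled in vehicle alone. The duration of the vehicle treatment was not given. Each condition was deposited as 1 pooled peak list, so no value carries a replicate error, and the peak names of the early TNFα list of RELA leave unclear whether its 3 replicates were all merged. Regions are not replicates: intervals and tests over them describe these lists, the depth behind each list is unknown, and a factor's lists can differ in depth. In vehicle, 7 of 7 epithelial marker genes, from KRT7 to MUC1, and 0 of 4 blood cell marker genes had an H3K27ac peak within 1 kb of a start site, as did 3 of 4 fibroblast and endothelial marker genes (COL1A1, PECAM1 and VWF).

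RELA and RELB are subunits of NF-κB, a family of dimeric transcription factors. In the canonical pathway, TNFα acts through its receptor TNFRSF1A on the IκB kinases, the inhibitor IκB is degraded within minutes, and dimers of RELA and p50 enter the nucleus. In the noncanonical pathway, TWEAK acts through its receptor TNFRSF12A, the kinase NIK accumulates, the precursor p100 is slowly cut to p52, and dimers of RELB and p52 enter the nucleus. Both kinds of dimer read related, nearly symmetric DNA sites. FOSL1 (FRA-1) is a subunit of AP-1, a dimeric factor that marks many enhancers of pancreatic cancer cells, and H3K27ac is a histone mark of active enhancers and promoters.

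The DNA at the summits of several shared induced regions is shown because the 2 factors' summits lay close together over it. The summit, the base of highest enrichment in a peak, differed between RELA at 30 min of TNFα and RELB at 6 h of TWEAK by a median of 20.0 bp, and by at most 50 bp in 840 of the 998 regions (84.2%). Each line gives 81 bases of hg38, plus strand, centred on the RELA summit, with capitals for matches to the NF-κB consensus (GGG, a purine, any base, A or T, a pair of pyrimidines, CC, on either strand) or to the AP-1 consensus (TGANTCA). The first set was picked, for its NF-κB matches, among the 12 regions with the highest combined enrichment of both factors; the regions beside IFNGR2 and DYRK1A, also among the 12, held neither consensus within 40 bp of the summit.
MLF1, chr3:158421079-158421159: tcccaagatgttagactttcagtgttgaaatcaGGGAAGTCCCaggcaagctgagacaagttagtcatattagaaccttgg
SMAD2, chr18:47772736-47772816: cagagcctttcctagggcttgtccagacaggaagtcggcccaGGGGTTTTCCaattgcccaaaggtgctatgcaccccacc
NTN4, chr12:95721434-95721514: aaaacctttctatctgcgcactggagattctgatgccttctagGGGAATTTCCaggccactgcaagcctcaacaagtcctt
SIK1, chr21:43478040-43478120: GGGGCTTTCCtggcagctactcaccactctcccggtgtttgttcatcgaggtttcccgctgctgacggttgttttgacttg
FAAH2, chrX:57286508-57286588: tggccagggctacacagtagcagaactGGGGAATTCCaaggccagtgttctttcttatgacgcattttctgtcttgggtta
TMEM132B, chr12:126772555-126772635: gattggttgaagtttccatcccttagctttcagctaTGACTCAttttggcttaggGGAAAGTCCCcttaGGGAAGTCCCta
The second set lies at genes of the NF-κB system or at a collagenase gene, with its NF-κB match in capitals.
TNFAIP3, chr6:137873493-137873573: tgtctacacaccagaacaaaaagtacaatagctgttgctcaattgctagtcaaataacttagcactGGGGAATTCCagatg
BCL3, chr19:44739057-44739137: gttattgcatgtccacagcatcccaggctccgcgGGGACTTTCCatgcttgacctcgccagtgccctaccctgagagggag
NFKB1, chr4:102552993-102553073: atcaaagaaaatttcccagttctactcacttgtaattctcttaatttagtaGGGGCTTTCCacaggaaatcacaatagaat
MMP1, chr11:102794545-102794625: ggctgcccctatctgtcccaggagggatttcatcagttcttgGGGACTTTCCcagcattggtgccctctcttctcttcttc
In the third set an NF-κB match and an AP-1 match lie side by side, and in the last set only an AP-1 match falls within 40 bp of the summit.
TENT4A, chr5:6766712-6766792: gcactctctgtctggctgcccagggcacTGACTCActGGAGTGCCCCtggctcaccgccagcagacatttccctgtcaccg
IL23A, chr12:56338757-56338837: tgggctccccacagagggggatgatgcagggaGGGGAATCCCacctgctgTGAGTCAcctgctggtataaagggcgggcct
FAM151B, chr5:80516958-80517038: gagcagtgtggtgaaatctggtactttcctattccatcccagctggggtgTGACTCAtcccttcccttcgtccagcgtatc
BIRC3, chr11:102306446-102306526: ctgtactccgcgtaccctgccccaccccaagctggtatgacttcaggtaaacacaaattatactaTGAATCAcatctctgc

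Most shared induced regions lay away from promoters. Of the 998, 186 (18.6%; 95% exact interval 16.3 to 21.2) had their summit within 1 kb of the start site of a protein-coding gene, 387 lay elsewhere inside such a gene and 425 lay between genes. Among induced RELA regions without RELB the promoter share was 21.6% (20.6 to 22.5), an odds ratio of 0.834 (0.70 to 0.988; Fisher's exact test, two-sided, p = 0.0355 after Benjamini-Hochberg adjustment over 8 comparisons of regions). Over all 11249 RELA regions, vehicle regions included, the share was 16.8%, below that of the shared regions. The call was lost with a q of at most 0.001 (0.859, Fisher's exact test, adjusted p = 0.0849) or a fold enrichment of at least 5 in both lists (0.851, adjusted p = 0.0972). The median distance to a start site was 21350 bp, and 94 shared induced regions (9.42%) had another within 50 kb. Their share among the induced RELA regions ran from 2.40% on chromosome 13, with 3 shared regions, to 16.9% on chromosome 15, with 60.

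At the edge of the rule, the smallest overlaps with a RELB region were 9 bp, beside TMEM266, 15 bp, beside SEMA6A, and 42 bp, beside TAF11L10. Just outside the rule, RELA regions beside MAK, ANKRD30B and YJU2 came within 25, 30 and 67 bp of a RELB region. The median overlap was 157 bp, with 6 regions under 50 bp, and 4 comparison regions came within 100 bp of a RELB region. At the vehicle edge, 13 shared induced regions lay within 1 kb of a vehicle region of either factor, the nearest at 15 bp.

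RELA was still called after 6 h of TNFα at most shared induced regions. A RELA peak was present at that time in 850 of the 998 regions (85.2%; 82.8 to 87.3) and in 24.5% (23.6 to 25.5) of induced RELA regions without RELB, beside 31.6% of all 8504 induced RELA regions. The odds ratio was 17.7 (14.7 to 21.3; Fisher's exact test, two-sided, adjusted p = 1.92e-308), the share was higher on 23 of 23 chromosomes, and comparing within deciles of RELA fold enrichment gave 13.5 (10.8 to 16.8). Fold enrichment, the authors' ratio of ChIP over input signal at a summit, had a median of 9.72 at 30 min and 7.97 at 6 h over these 850 regions, and it was higher at 30 min in 597 of them (70.2%). The regions were selected on their 30 min peak and not on the 6 h peak, so this is a description that favours 30 min. The 148 shared regions without RELA at 6 h had a lower median at 30 min, 5.77, and 39.9% of them held the NF-κB consensus, with 72.8% of the 850 regions. The difference between both subsets was not tested.

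**Figure D1:**
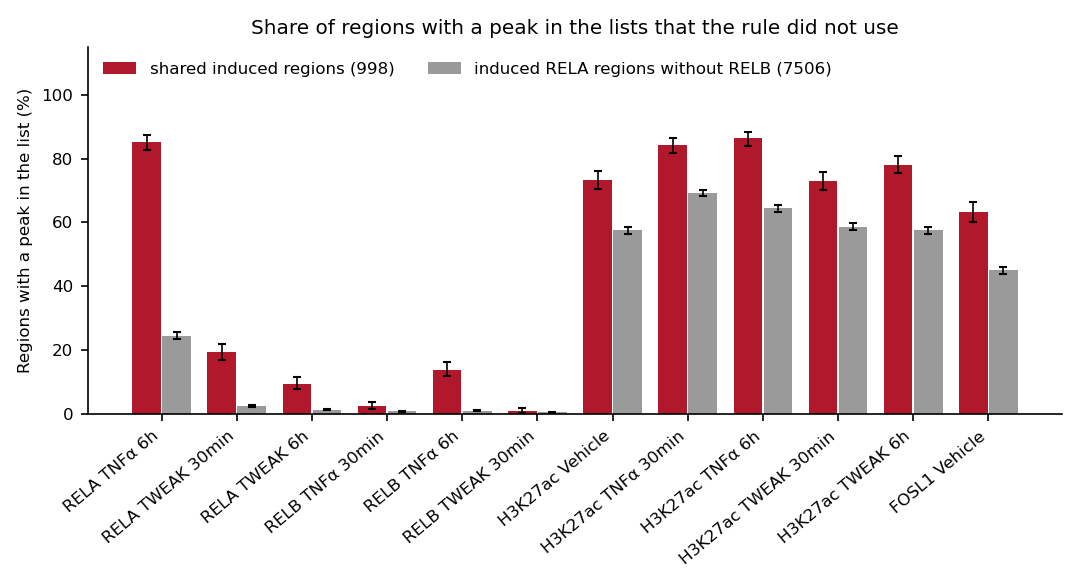
Share of regions (%, y axis) with a peak in each of the 12 lists that the rule did not use (x axis), for the 998 shared induced regions (red) and the 7506 induced RELA regions without RELB (grey). Bars are shares and whiskers 95% exact intervals over regions; the red bar is the higher of each pair, with 85.2% against 24.5% for RELA at 6 h of TNFα.

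After TWEAK, RELA was called at fewer of these regions. A RELA peak was called at 30 min of TWEAK in 193 shared induced regions (19.3%; 16.9 to 21.9) against 2.48% (2.14 to 2.86) of induced RELA regions without RELB, with 4.46% over all induced RELA regions. The odds ratio was 9.43 (7.57 to 11.8; Fisher's exact test, two-sided, adjusted p = 5.35e-83), the share was higher on 22 of 23 chromosomes, and the odds ratio fell to 3.83 (2.98 to 4.92) within deciles of RELA fold enrichment at 30 min of TNFα. The 193 regions had a median RELA fold enrichment of 13.8 at 30 min of TNFα, the other 805 a median of 7.99, while their RELB medians were 6.81 and 6.62. At 6 h of TWEAK, the time and ligand at which all 998 regions had RELB, RELA was called in 95 (9.52%; 7.77 to 11.5) and was not called in 903. The comparison share at that time was 1.33% (1.09 to 1.62) and the share of all induced RELA regions 2.29%.

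In the RELB lists that the rule did not use, RELB was called at a minority of these regions. The rule required RELB at 6 h of TWEAK and its absence in vehicle, so a contrast between lists favours 6 h of TWEAK. The comparison regions were chosen to lack RELB at 6 h of TWEAK. A contrast of both sets in another RELB list thus favours the shared regions, also within deciles of RELA fold enrichment. The RELB lists held 4038 regions at 6 h of TWEAK, 3526 at 6 h of TNFα and 4085 in vehicle. After 6 h of TNFα RELB was called in 138 shared induced regions (13.8%; 11.7 to 16.1) and in 1.01% (0.799 to 1.27) of induced RELA regions without RELB, beside 2.52% of all induced RELA regions. The odds ratio was 15.7 (11.7 to 21.2; Fisher's exact test, two-sided, adjusted p = 6.86e-77), the share was higher on 23 of 23 chromosomes, and the odds ratio was 26.2 within deciles of RELA fold enrichment, 25.8 with a fold enrichment of at least 5 in both lists and 106 outside tandem repeats, where 114 of 944 shared regions and 9 of 6932 comparison regions were called. RELB fold enrichment at 6 h of TNFα ran from 1.99 to 8.98 with a median of 5.18. At 30 min RELB was called in 25 shared regions with TNFα (2.51%, background 0.964%) and in 9 with TWEAK (0.902%, background 0.576%), of which 11 and 1 lay outside tandem repeats. Patterns were read over RELA at 6 h of TNFα, RELA at both times of TWEAK and RELB at 6 h of TNFα. The most frequent, in 540 shared regions (54.1%), was RELA at 6 h of TNFα with none of the others. Another 130 regions (13%) were in no other RELA or RELB list.

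The 12 regions with the highest geometric mean of both fold enrichments, outside tandem repeats, were chosen by those values. The highest, in an intron of RSRC1 with MLF1 as its nearest gene by start site (chr3:158420953-158421281), had a RELA fold enrichment of 22.3 after 30 min and 17.3 after 6 h of TNFα, and of 7.91 and 5.05 at the same times of TWEAK. RELB reached 16 there at 6 h of TWEAK and 6.30 at 6 h of TNFα. It was the only region of the 12 with RELA at 6 h of TWEAK.

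The next, between genes on chromosome 18 with SMAD2 as its nearest gene (chr18:47772558-47772931), had RELA at 20.2, 12.2 and 8.42 in those first 3 conditions and RELB at 15.3 at 6 h of TWEAK alone. The region beside IFNGR2, the gene of an interferon-γ receptor chain (chr21:33383018-33383405), had RELA at 17.7 and 13 after TNFα, no RELA peak after TWEAK, and RELB at 16.7 at 6 h of TWEAK and 5.99 at 6 h of TNFα. The FAAH2 promoter region (chrX:57286359-57286709), 158 bp from a start site of this fatty acid amide hydrolase gene, was the only promoter among the 12, with RELA at 14.7 and RELB at 17.1. FAM151B had the highest RELA value at 6 h of TNFα, 20.3, in an intron (chr5:80516822-80517127).

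All 12 regions had RELA at 6 h of TNFα, from 7.93 to 20.3, 9 had RELA at 30 min of TWEAK, from 6.17 to 9.76, and 7 had RELB at 6 h of TNFα, from 5.16 to 7.30. None had RELB at 30 min of either ligand. FOSL1 was called in vehicle at 8 of the 12, from 5.30 beside IFNGR2 to 12 in FAM151B. The 12 were chosen by fold enrichment, so these counts do not describe typical shared regions. All 12 lie in the highest quartile of the 998 by RELA fold enrichment. In that quartile the late TNFα list held RELA in 100% of regions, and the early TWEAK list held it in 56.8%. RELB in the late TNFα list reached 19.6% of the quartile, FOSL1 68.4% and H3K27ac in vehicle 78.4%. H3K27ac was called within 500 bp of the summit at 7 of the 12 in vehicle and at all 12 after 30 min of TNFα, the 5 regions without it in vehicle being those beside MLF1, SMAD2, DYRK1A and PTP4A3 and in FAM151B. The remaining regions of the 12 were those beside SIK1, the gene of a salt-inducible kinase, NTN4, TMEM132B, AFAP1 and TENT4A.

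**Figure D2:**
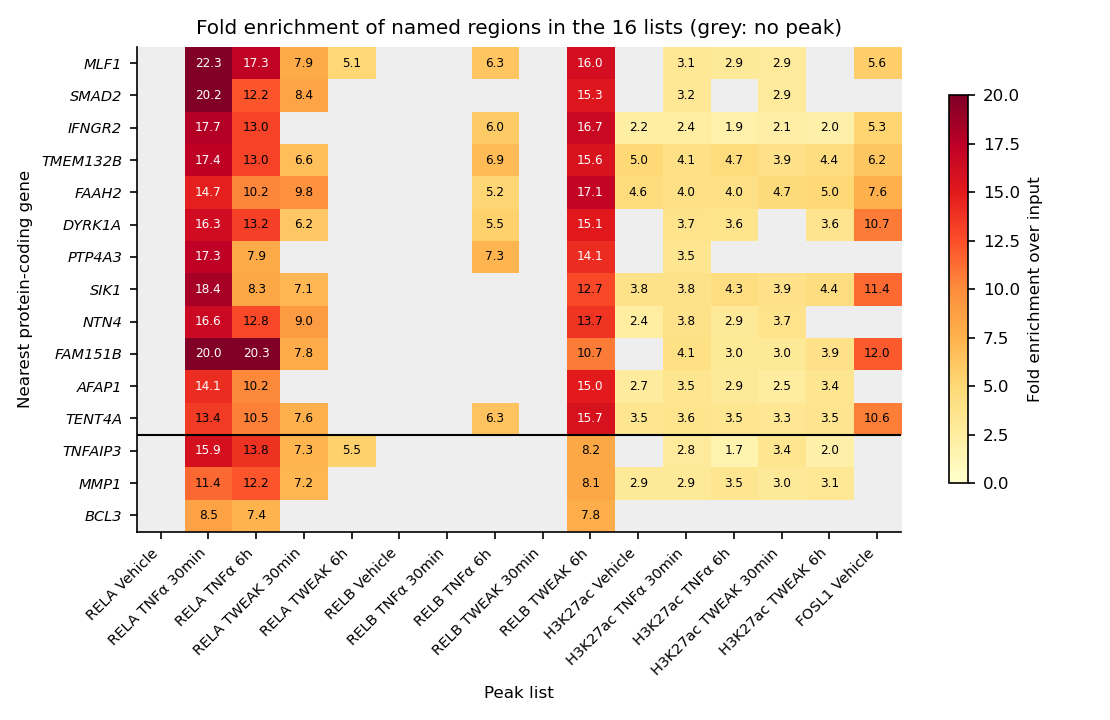
Fold enrichment over input (colour and number, scale 0 to 20) in the 16 lists (x axis) for the 12 regions with the highest combined enrichment and for the regions at TNFAIP3, MMP1 and BCL3 below the line (y axis, nearest gene). Grey marks a list with no peak; RELB at 30 min is grey in every row, and the BCL3 region has values of 8.52, 7.39 and 7.78 in 3 lists alone.

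Many shared induced regions lay where FOSL1 and H3K27ac were already called in vehicle. FOSL1 overlapped 632 of the 998 regions (63.3%; 60.3 to 66.3) and 45% (43.9 to 46.1) of induced RELA regions without RELB, beside 47.1% of all induced RELA regions. The odds ratio was 2.11 (1.84 to 2.43; Fisher's exact test, two-sided, adjusted p = 1.29e-27), and the share was higher on 23 of 23 chromosomes. The FOSL1 and RELA summits lay a median of 51.5 bp apart in the 632 shared regions and 67.0 bp in the 3377 comparison regions with FOSL1. Basal H3K27ac, a peak within 500 bp of the summit in vehicle, was present at 732 shared regions (73.3%; 70.5 to 76.1) and 57.5% (56.4 to 58.7) of the comparison regions, beside 59.4% of all induced RELA regions. The odds ratio was 2.03 (1.75 to 2.36; Fisher's exact test, two-sided, adjusted p = 2.40e-22), and the share was higher on 23 of 23 chromosomes.

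The combination of both marks divided the shared regions into 4 classes. FOSL1 with basal H3K27ac was the most frequent, with 559 regions (56.0%, against 39.5% of the comparison regions), and neither mark was found at 193 (19.3%, against 37.0%). Basal H3K27ac without FOSL1 was found at 173 regions and FOSL1 without basal H3K27ac at 73. The NF-κB consensus was held by 58.1% of the regions with FOSL1 and 85.0% of the 366 without it. The AP-1 consensus was held by 39.7% of the regions with both marks, 13.3% of those with H3K27ac alone, and 32.1% of those with neither mark, although FOSL1 was not called at the last. RELA at 6 h of TNFα was called at 85.9% of the regions with both marks, 86.7% of those with H3K27ac alone, 86.0% of those with neither and 74.0% (54 of 73) of those with FOSL1 alone.

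After TNFα, H3K27ac peaks were gained at the shared induced regions far more often than lost. At 30 min of TNFα 122 regions gained and 13 lost a peak within 500 bp against vehicle, or 9.38 gained per lost (5.29 to 18.1; exact McNemar test, two-sided, adjusted p = 4.49e-23 over 4 treatments), and 84.3% of the regions had a peak, beside 71% of all induced RELA regions. At 6 h of TNFα 134 gained and 4 lost a peak, or 33.5 gained per lost (12.8 to 125; exact McNemar test, two-sided, adjusted p = 3.42e-34), and 86.4% had a peak, beside 67%. Counting only H3K27ac peaks over the RELA region itself, the ratios were 3.24 and 4.85. The 30 min ratio was 5.8 with H3K27ac peaks of a q of at most 0.001, and the 6 h ratio was 127 outside tandem repeats and 120 with a fold enrichment of at least 5 in both lists. Induced RELA regions without RELB gained 956 and lost 76 peaks at 30 min of TNFα, or 12.6 gained per lost (9.95 to 16.1). At 6 h of TNFα they gained 604 and lost 89, or 6.79 gained per lost (5.42 to 8.58). Their ratio was thus above that of the shared regions at 30 min, with overlapping intervals, and below it at 6 h. The difference between both sets was not tested.

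After TWEAK the changes were smaller. At 30 min of TWEAK 44 shared regions gained and 48 lost an H3K27ac peak, or 0.917 gained per lost (0.595 to 1.41; exact McNemar test, two-sided, adjusted p = 0.755), a difference not detectable from these lists, and 72.9% had a peak, beside 60.4% of all induced RELA regions. At 6 h of TWEAK, when RELB was called at all of them, 65 gained and 17 lost a peak, or 3.82 gained per lost (2.21 to 6.96; exact McNemar test, two-sided, adjusted p = 1.19e-07), and 78.2% had a peak, beside 59.9%. This direction depended on the window: over the RELA region itself 61 peaks were gained and 68 lost, a ratio of 0.897 (exact McNemar test, adjusted p = 0.597), and it was 2.24 with only H3K27ac peaks of q 0.001 or lower. Induced RELA regions without RELB gained 290 and lost 201 peaks at 30 min of TWEAK, or 1.44 gained per lost. At 6 h of TWEAK they gained 200 and lost 201. The 4 treatments share the vehicle list, so their counts are not independent of each other.

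**Figure D3:**
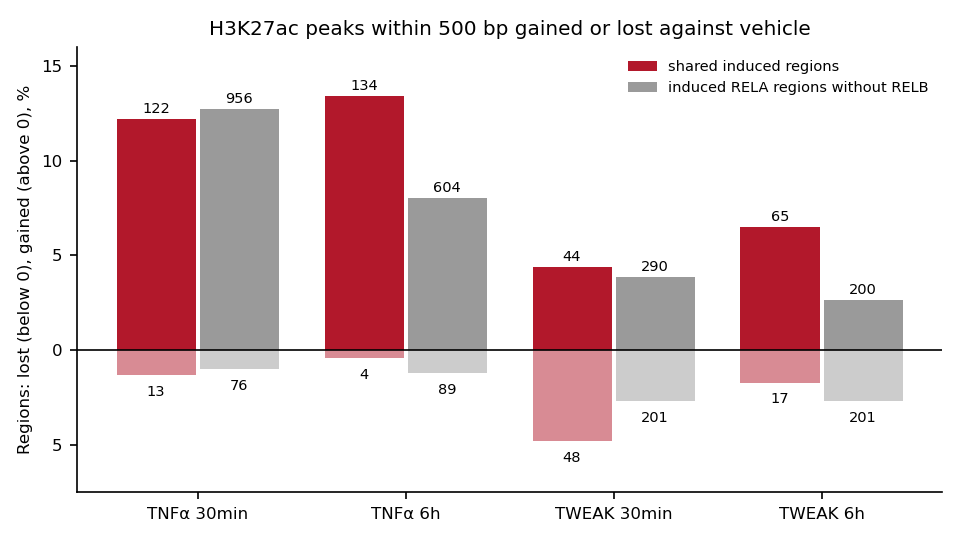
Regions that gained (above 0) or lost (below 0, paler) an H3K27ac peak within 500 bp of the RELA summit against vehicle, in % of the set (y axis) and as counts (numbers), after each treatment (x axis). Red bars are the 998 shared induced regions and grey bars the 7506 induced RELA regions without RELB; at 6 h of TNFα 134 shared regions gained and 4 lost a peak.

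Most shared regions kept 1 state of H3K27ac throughout. A peak was called in all 5 H3K27ac lists at 667 shared regions (66.8%) and in none at 97 (9.72%), while the comparison regions had shares of 52.9% and 26.9%. The most frequent change was a peak at both times of TNFα alone, at 36 regions, followed by a peak absent at 30 min of TWEAK alone, at 34. The TNFAIP3 region was called in the 4 treated lists and not in vehicle, as were 22 regions in all. The BCL3 region was called in no H3K27ac list.

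The NF-κB consensus was found within 100 bp of the RELA summit at 678 shared induced regions (67.9%; 64.9 to 70.8) and at 39.5% (38.4 to 40.6) of induced RELA regions without RELB. It was found in 34.8% of windows of the same length at all 11249 RELA regions and in 3.43% of those at the 58828 FOSL1 regions. The odds ratio between the first 2 sets was 3.24 (2.81 to 3.75; Fisher's exact test, two-sided, adjusted p = 2.03e-64), and the share was higher on 23 of 23 chromosomes. The AP-1 consensus was found at 333 shared regions (33.4%; 30.4 to 36.4) and 15.0% (14.2 to 15.9) of the comparison regions, in 14.4% of the windows at all RELA regions and in 44.4% of those at FOSL1 regions. The odds ratio was 2.83 (2.44 to 3.28; Fisher's exact test, two-sided, adjusted p = 2.10e-40), and the share was higher on 23 of 23 chromosomes.

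The NF-κB matches gathered at the summits of both factors. The nearest match lay a median of 13.5 bp from the RELA summit and 15.5 bp from the RELB summit in the 678 regions with one, and 463 of them (68.3%) had it within 20 bp of the RELA summit, against 58.2% of the 2965 comparison regions with a match. The AP-1 matches were more spread, a median of 33.0 bp from the RELA summit, but 16 bp from the FOSL1 summit in the 248 shared regions with both FOSL1 and the AP-1 consensus. Both consensuses occurred together in 196 shared regions (19.6%) and in 4.38% of the comparison regions. The centres of the nearest pair lay a median of 34.5 bp apart in the shared and 49.5 bp in the comparison regions. The TENT4A and IL23A sequences shown above were picked for pairs that lie side by side. Neither consensus was found at 183 shared regions (18.3%, against 49.8%), of which 42 lay in tandem repeats.

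**Figure D4:**
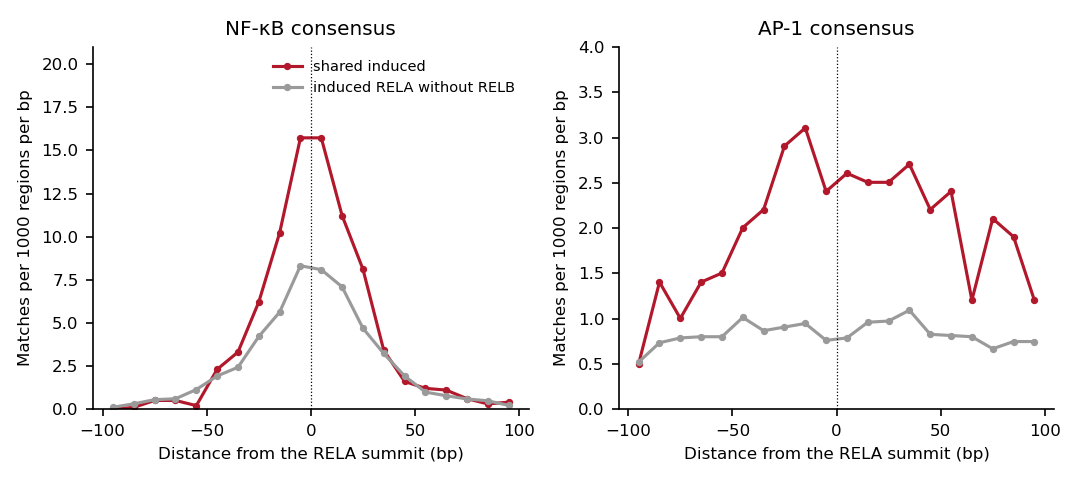
Consensus matches per 1000 regions and bp (y axis) by distance of the match centre from the RELA summit in bp (x axis, bins of 10 bp), for NF-κB (left) and AP-1 (right), at the shared induced regions (red) and the induced RELA regions without RELB (grey). NF-κB matches gather at the summit in both sets, and the red AP-1 line lies above the grey one in most bins.

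The NF-κB matches were also compared by their letters, read on the strand where the consensus runs forward. These letters were compared after their values had been seen, so the shares are given with no test. GGGACTTTCC, the match of the BCL3 and MMP1 regions, was the most frequent in the shared regions, in 109 of the 678 with a match (16.1%), and occurred in 178 of the 2965 comparison regions with a match (6.00%). GGGGCTTTCC, the match of the NFKB1 and SIK1 regions, occurred in 60 shared regions (8.85%) and 3.47% of the comparison regions with a match. In the comparison regions GGGAAATTCC was the most frequent, at 15.6%, with 6.93% in the shared regions.

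Over all matches, the fifth base was C in 30.2% of 817 matches in the shared regions and in 16.2% of 3919 in the comparison regions, and A in 48.2% and 61.4%, with each different match of a region counted once. The shared regions with GGGACTTTCC had a median RELA fold enrichment of 8.66 at 30 min of TNFα and 20 of the 109 had RELA at 30 min of TWEAK. Those with GGGAAATTCC had a median of 12.4, and 16 of 47 had RELA at 30 min of TWEAK. Their RELB medians at 6 h of TWEAK were 6.89 and 6.54.

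RELA and RELB fold enrichments over the shared regions come from the lists that selected them, which bounds both from below, so their relation is a description. RELA fold enrichment at 30 min of TNFα ran from 1.79 to 22.7 with a median of 8.97 and quartiles of 6.38 and 12.1, against a median of 5.77 in the comparison regions. RELB fold enrichment at 6 h of TWEAK ran from 2.04 to 19.6 with a median of 6.64. Across the 998 regions, which share their libraries and inputs, Spearman's rho between both was 0.29 and Pearson's r on the log2 scale 0.33. The highest RELB value, 19.6, was in an intron of TNIP2, where RELA was at 6.93 after 30 min and 18.3 after 6 h of TNFα.

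**Figure D5:**
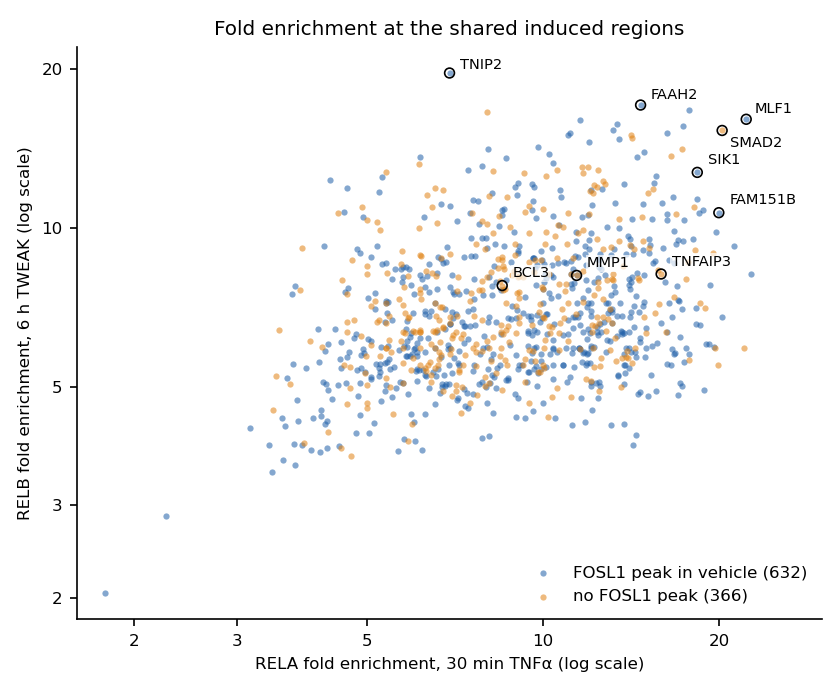
Fold enrichment of RELA at 30 min of TNFα (x axis, log scale) and of RELB at 6 h of TWEAK (y axis, log scale) at the 998 shared induced regions, 1 point each, in blue for the 632 with and orange for the 366 without a FOSL1 peak in vehicle. Circles name regions by their nearest gene; TNIP2 has the highest RELB value, 19.6, at a RELA value of 6.93.

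Of the lists compared by the strength of RELA, only RELA at 6 h of TNFα rose at each step when regions in tandem repeats were included. From the lowest to the highest quartile of RELA fold enrichment, the share with RELA at 6 h of TNFα was 62.4%, 83.1%, 95.2% and 100%, and the share with RELA at 30 min of TWEAK was 3.2%, 2.01%, 15.3% and 56.8%. The NF-κB consensus went from 46.0% to 82.0% and the AP-1 consensus from 39.2% to 26.0% between the lowest and the highest quartile. FOSL1 had no such order, with 63.6%, 54.6%, 66.7% and 68.4%. RELA at 6 h of TWEAK had 10%, 4.42%, 8.84% and 14.8%, and RELB at 6 h of TNFα 14.8%, 10.4%, 10.4% and 19.6%. Outside tandem repeats these lists and RELA at 30 min of TWEAK also rose at each step. The shares there were 2.40%, 4.51%, 8.87% and 15.2% for RELA at 6 h of TWEAK. For RELB at 6 h of TNFα they were 7.69%, 9.84%, 10.5% and 19.7%, and for RELA at 30 min of TWEAK 0.481%, 2.05%, 15.3% and 57.0%. Basal H3K27ac had 63.2%, 69.1%, 82.7% and 78.4%. The median RELB fold enrichment was 5.94 in the lowest and 7.22 in the highest of these quartiles. These are descriptions of regions ordered by a value the rule used.

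A small share of the regions lay in tandem repeats, where 1000 bp around the summit matched themselves at a short shift. They were 54 of the 998 (5.41%), against 7.65% of the comparison regions and 45.2% of 540 regions with RELB after 6 h of TWEAK that had no vehicle peak and no RELA at 30 min of TNFα. Of the 54, 24 had RELB after 6 h and 14 after 30 min of TNFα, 37 had FOSL1, 18 had basal H3K27ac and 11 held the NF-κB consensus. The part of repeats in the calls was not tested. Leaving them out moved the tested ratios above by less than 1.5 times except for RELB at 6 h of TNFα and the H3K27ac ratio at 6 h of TNFα, whose values are given there.

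Of the 998 regions, 687 had a start site of a protein-coding gene within 50 kb. Such regions were found at 1345 of 19618 protein-coding genes (6.86%), and at 1054 of the 12860 with H3K27ac at a start site in vehicle (8.2%). Of 161 genes in 13 lists of NF-κB, AP-1 and pancreatic cancer biology, 52 (32.3%) had a shared region within 50 kb, through 48 different regions. These lists were drawn up with results of these data known, so the share is a description. Of the 48 regions 39 had RELA at 6 h of TNFα, 32 had FOSL1, 35 had basal H3K27ac, 37 held the NF-κB consensus and 22 the AP-1 consensus. Over all 998 regions these shares were, in the same order, 85.2%, 63.3%, 73.3%, 67.9% and 33.4%.

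Among the 5 subunits of NF-κB, NFKB1 and RELA had a shared region. The RELA promoter region (chr11:65663022-65663369), 96 bp from a start site, had RELA at 12.9 and 11.5 at the early and late time of TNFα and 4.89 early after TWEAK, and RELB at 6.13 at 6 h of TWEAK. It carried FOSL1 at 6.75 and basal H3K27ac and held neither consensus within 100 bp of the summit. NFKB1, which encodes p105 and p50, had an intronic region 49658 bp from a start site with RELA at 9.63 and 7.94 after TNFα and RELB at 5.86.

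The genes of feedback regulators had a shared region in 5 of 14 cases. TNFAIP3, which encodes the ubiquitin-editing enzyme A20, had an intronic region (chr6:137873307-137873765) with RELA at 15.9, 13.8, 7.32 and 5.47 in the 4 treated RELA lists in order of TNFα then TWEAK, and RELB at 8.19. BCL3, an atypical IκB protein that binds p50 and p52, had a region 9611 bp away (chr19:44738995-44739207) with RELA at 8.52 and 7.39 after TNFα and RELB at 7.78, without FOSL1 or H3K27ac. The others were TNIP2, NFKBIE and ZC3H12A, the last 2 with RELA at 4.89 and 9.43 at 30 min of TNFα. CXCL8, EFNA1 and NFKBIA had 0 shared regions within 50 kb. The paper shows NFKBIA as a locus common to both factors, and CXCL8 and EFNA1 as specific to RELA, from differential binding. The present rule uses overlap of peaks and leaves out regions with a vehicle peak. A count of 0 thus does not show that both factors lack a common site there.

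Genes of receptors, adaptors and ligands of the TNF family carried shared regions in 7 of 13, 7 of 17 and 3 of 10 cases. The region at IL32, a cytokine gene (chr16:3065120-3065538), also lay 44943 bp from TNFRSF12A, the TWEAK receptor gene, and had RELA at 17.6 and 14.3 after TNFα and at 8.06 after 30 min of TWEAK, and RELB at 8.02 at 6 h of TWEAK and 6.15 at 6 h of TNFα. A region in PLEKHG6, 29016 bp from TNFRSF1A, the TNFα receptor gene, had RELA at 13.2 and 10.8 after TNFα and RELB at 7.78 and 5.93 at 6 h of TWEAK and of TNFα. TNFRSF9 and FAS had regions with RELB at 9.34 and 11 and no basal H3K27ac. The adaptor genes TRAF4 and TRAF2 had RELA at 15.8 and 13.1, and the region beside BIRC3, the gene of cIAP2, was weak, with RELA at 4.49 and RELB at 3.88, and held the AP-1 but not the NF-κB consensus. Among the ligand genes, CD70 had RELA at 8.12 and TNFSF15 at 5.91.

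Chemokine genes had 2 of 15 (13.3%), CCL28 and CCL20. An induced RELA region without RELB lay within 50 kb of 15 of 15, and of 37.3% of all protein-coding genes. High shares were not particular to chemokines: 12 of 13 survival and stress genes, 11 of 12 AP-1 genes and 12 of 14 feedback regulators had one. The lowest share among the 13 lists was 46.2%, in TNF receptor genes. The CCL28 intronic region had RELA at 13.8 and 12.1 after TNFα and 8.50 at 30 min of TWEAK. Cytokine genes had 5 of 12, among them IL1A and IL1B through the same region, with RELA at 12.4 and RELB at 6.49, and IL23A, with RELA at 3.87 and a higher RELB value of 9.16 at its promoter. Interferon and antigen presentation genes had 4 of 14, among them IRF2 at its promoter with RELA at 10.2 and IRF1 with RELA at 9.03. The FAS, BIRC3, IL23A and MMP7 regions were picked as examples after their values had been seen.

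Genes of proteases and adhesion had 7 of 14. The region beside PLAUR, the urokinase receptor gene, had the highest RELA value of all shared regions, 22.7, with 14 after 6 h of TNFα, 13 early after TWEAK and RELB at 8.17, but lay in a tandem repeat. MMP1, an interstitial collagenase gene, had an intronic region (chr11:102794388-102794717) with RELA at 11.4 and 12.2 after TNFα, 7.25 after 30 min of TWEAK and RELB at 8.14, and the same region lay within 50 kb of MMP10 and MMP3. MMP7 had RELB at 11.7 against RELA at 5.26. Laminin and integrin genes had 4 of 10, with RELA at 14 and 12.1 in the 2 regions of ITGB8.

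AP-1 genes had 3 of 12, survival and stress genes 2 of 13, and EGFR ligand and DUSP genes 1 of 12. The FOSL1 gene had 2 shared regions, 26653 and 15186 bp from a start site, with RELA at 18.5 and 6.01, and both carried FOSL1 itself, at 8.96 and 10.9. The FOSB region, 12081 bp away, had RELA at 14.6 and the highest FOSL1 value of all shared regions, 24.1. TGFA, an EGFR ligand gene, had RELA at 14.8 and RELB at 9.07 in an intron, and the promoter of BBC3, which encodes the proapoptotic protein PUMA, had RELA at 12 and RELB at 5.55.

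SMAD3, which carries TGF-β signals to the nucleus, had the most shared regions within 50 kb of its start sites, 4, all in its introns. Their RELA values at 30 min of TNFα were 8.02, 10.1, 3.70 and 12.6, and at 6 h of TNFα they were 4.68, 5.73, 6.87 and 14.8. RELB at 6 h of TWEAK was at 5.97, 6.32, 5.08 and 11.9, and the first and the last also had RELB at 6 h of TNFα, at 4.93 and 6.56. FOSL1 was called at 3 of the 4, at 10.9, 8.90 and 12.3. BHLHE40, a transcriptional repressor gene, XXYLT1, and the neighbours PPP2R3C and PRORP, which share their regions, had 3 each, with RELA from 9.62 to 13.7, from 4.29 to 7.29 and from 5.94 to 13.6.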

How the data were processed

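ChIP-seq peaks of RELA, RELB, H3K27ac and FOSL1 were analysed from 16 lists covering 48 L3.6pl samples, grouped by their labels. The authors mapped paired-end reads to hg38 with Bowtie2 2.5.0 and called peaks against input with MACS2 without its shifting model, at a cutoff of 0.05, in broad mode for H3K27ac, where fold enrichment is averaged over the peak. The labels also name SAMtools 1.18 and deepTools 3.3.2; a MACS2 version and a blacklist are not given in the sources used here. RELA was precipitated on Protein G beads and the others on protein A. Each deposited list is 1 pooled call per condition and gives a fold enrichment ratio, a q-value as −log10 q, and, in the 11 narrow lists, a summit offset. The deposited columns of −log10 p and of score, 16 each, were not used. Depth is unknown, so a missing peak does not show that a factor was absent.

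Overlap meant at least 1 bp. H3K27ac was read within 500 bp of the RELA summit, motifs within 100 bp (201 bases, both strands), promoters within 1 kb of a start site of a protein-coding gene (GENCODE 44) and genes within 50 kb. A region lay in a tandem repeat where its 1000 bp matched themselves at a score of at least 0.4 at a shift of up to 400 bp. Shares of regions were compared by Fisher's exact test over 8 comparisons and H3K27ac gain and loss by the exact McNemar test over 4 treatments, both two-sided with Benjamini-Hochberg adjustment. Intervals are 95% and cover counting over regions only. They are exact (Clopper-Pearson for shares), except those within deciles of RELA fold enrichment, which use a normal approximation. Alternatives changed the peak thresholds, overlap, windows, tandem repeats and distance to vehicle regions, or compared within deciles of RELA fold enrichment by the Mantel-Haenszel method. Named regions were the 12 of highest geometric mean of both fold enrichments outside tandem repeats, genes of 13 lists, described by those of highest RELA fold enrichment, the 5 genes with most regions, and 6 genes whose tracks the study shows. Members and lists were chosen with earlier results of these data known. The functions were tested on simulated data. Python 3.11.15, numpy 2.4.6, pandas 2.3.3, scipy 1.17.1, statsmodels 0.14.6 and matplotlib 3.10.9 were used. Some items of the named-region rule are not reported here.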

Additional observations from a re-analysis of the deposited data

How the results depend on the processing

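Of 87 values under 11 alternative settings of 13 results, 84 kept their direction and their side of the threshold. The H3K27ac ratio at 6 h of TWEAK turned direction when only H3K27ac peaks over the RELA region itself counted, at 0.897 gained per lost (61 gained and 68 lost, exact McNemar test, adjusted p = 0.597), and ran up to 5.18 over the other settings. The promoter odds ratio was no longer past the threshold with a fold enrichment of at least 5 in both lists, at 0.851 (Fisher's exact test, adjusted p = 0.0972), or a q of at most 0.001, at 0.859 (adjusted p = 0.0849); the cause was not tested. The number of shared regions ran from 838 to 989. The odds ratios ran from 2.10 to 2.36 for FOSL1, from 1.66 to 2.28 for basal H3K27ac, from 13.5 to 19.6 for RELA at 6 h of TNFα, from 2.45 to 3.36 for the NF-κB consensus and from 2.81 to 3.16 for the AP-1 consensus. No paired analysis was possible because each condition was deposited as 1 pooled list, in which replicates carry no columns; for the same reason no replicate could be left out.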

Other observations

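Other motifs, searched in the same windows around the summit, had similar shares in both sets of induced RELA regions. The TEAD motif was found at 165 of the 998 shared induced regions (16.5%) and at 15.8% of the induced RELA regions without RELB, and the KLF/SP motif at 176 (17.6%) and 18.8%. The ETS, RUNX and FOX motifs were found at 3.01%, 4.81% and 3.51% of the shared regions and at 3.24%, 4.24% and 4.86% of the others. These shares were not tested.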
